A study of Arabidopsis thaliana with 20 samples.

Results

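Peaks of HSFA1d binding listed after heat were compared with those listed after wounding, in Arabidopsis thaliana seedlings. The peaks compared were those of the list made after 30 min at 37 °C (HS) and of the list made 10 min after wounding (W10min). A peak was kept when it met no peak of either untreated list by 1 bp or more and lay outside a dense stretch of chromosome 2, 450 kb long from 3.2 Mb on. Of 2103 HS peaks 1207 were kept (57.4%), and of 1445 W10min peaks 850 were kept (58.8%), so that 2057 of the 7502 peaks in all 6 lists of the study are described. A kept peak was sorted into both when it overlapped a kept peak of the other list by at least 1 bp, and otherwise into HS only or W10min only.

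HSFA1d is one of the master regulators of the heat shock response in Arabidopsis. Heat shock factors are held inactive by chaperones in unstressed cells. They are released when proteins unfold, form trimers and bind heat shock elements in the promoters of chaperone genes. Wounding sets off another well-known program within minutes, with synthesis of the hormone jasmonate, calcium signalling and, later, reprogramming of cells at the cut. The title of the study names activation of HSFA1 by wounding, and the comparison of HS with W10min bears on how far the sites under both treatments were the same.

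All plants, untreated ones included, carried pHSFA1d::HSFA1d-GFP, a GFP fusion expressed from the gene's own promoter, in a mixed background of Col-0 and Ws. Whole seedlings were used at 2 weeks of age, about 60 per sample, after growth at 22 °C in constant light. HS and its untreated time 0 (HT0) each had 3 ChIP and 3 input samples. W10min, its untreated time 0 (WT0) and the later wounding times of 3 h (W3h) and 24 h (W24h) each had 1 ChIP and 1 input sample. Wounded seedlings had been cut repeatedly with a razor blade and kept on MS medium. An anti-GFP antibody pulled down the fusion with its DNA.

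The reads of a condition were concatenated before peaks were listed, so each condition has 1 list, and values come without a replicate spread and without a test. The labels give at least 10 M mapped reads per library, and the depth is otherwise unknown. HS pooled 3 ChIP libraries and W10min held 1, and the part of this difference in the lengths of the lists cannot be told apart from the treatments. Fold enrichment and q of each peak are the authors' own values, where q is the false discovery rate of the peak over its input. They rank peaks within a list only, and ranks in lists of different lengths show no change. Whole seedlings were used, and a site bound in few cells cannot be told apart from one bound weakly in many. Many peaks were weak, since 12% of all HS peaks and 7.40% of all W10min peaks had a q of 1. HSFA1D (AT1G32330), the tagged gene, was listed in all 6 conditions, at 1.99-fold in HS and 2.30-fold in W10min, and left the comparison as a time 0 site.

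The class in both held 199 HS peaks and 197 W10min peaks, which formed 200 overlapping pairs. That was 16.5% of the kept HS peaks and 23.2% of the kept W10min peaks. These shares leave out time 0 sites and the chromosome 2 stretch. With these included, 32.8% of all HS peaks met a W10min peak and 38.1% of all W10min peaks met an HS peak. With time 0 sites included and the stretch still left out, 507 HS peaks were in both and 1405 were HS only. There, 894 W10min peaks were W10min only. In the sorting used here HS only held 1008 peaks and W10min only held 653. Of these, 7 HS only peaks and 2 W10min only peaks met a peak of the other list that had itself been removed. Few peaks lay just outside the overlap. The smallest overlap of a pair was 2 bp, and 4 pairs overlapped by under 20 bp. The smallest gap from an HS only peak to a kept W10min peak was 0 bp, and 4 HS only peaks had a gap of under 20 bp. Within 200 bp of a W10min peak lay 32 HS only peaks (3.17%), and within 200 bp of an HS peak lay 18 W10min only peaks (2.76%).

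The strongest sites of each treatment mostly met a kept peak of the other by at least 1 bp, whatever the q of that partner. HS peaks in both were also wider than HS only peaks (median 301 bp against 117.5 bp), and the part of width was not tested. Of the 32 kept HS peaks with a fold of 4 or more, 26 were in both (81.2%). The share was 60.3% of 63 peaks between 3 and 4, 22.7% of 88 peaks between 2.5 and 3, and 6.71% of 164 peaks below 1.5. In W10min 20 of 22 peaks with a fold of 3 or more were in both (90.9%), against 62.1% of 29 between 2.5 and 3 and 2.44% of 41 below 1.5. The share of shared peaks went up with each step of fold in both lists. The remaining peaks were weaker as a class, with a median fold of 1.72 in HS only against 2.21 for the HS peaks in both, and of 1.82 in W10min only against 2.03 for the W10min peaks in both. HS only still held 116 peaks with a q of at most 1e-05, and W10min only held 15. When that q was asked of both lists before sorting, 34 HS peaks were in both and 172 were HS only, while 19 W10min peaks were W10min only.

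**Figure D1:**
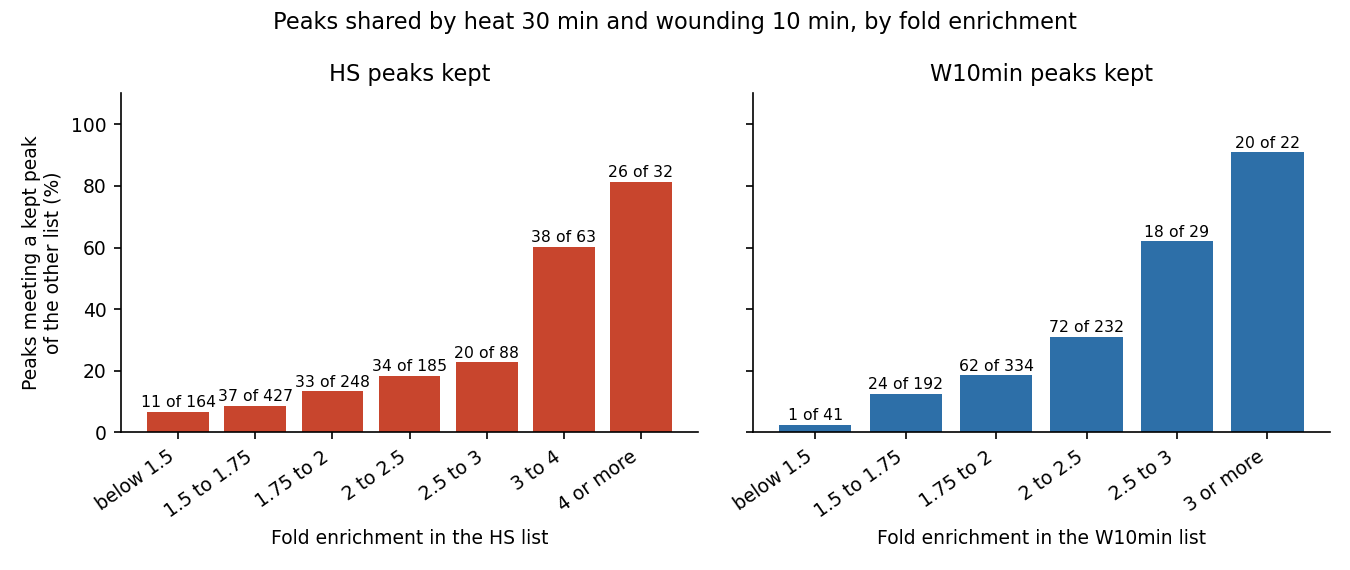
Share of kept peaks that met a kept peak of the other list (vertical axis, percent), by the peak's fold enrichment in its own list (horizontal axis), for HS (left) and W10min (right). Numbers over the bars are shared peaks of all kept peaks in the bin. The share goes from 6.71% to 81.2% in HS and from 2.44% to 90.9% in W10min.

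Pairs overlap by the sorting rule, which by itself keeps their midpoints near each other. The midpoints of a pair were 43.25 bp apart in the median, and 77.5% of pairs had midpoints within 100 bp. When a reciprocal overlap of at least 50% was asked, 106 of the 199 HS peaks stayed in both. The W10min peak lay wholly inside the HS peak in 83 pairs (41.5%) and the HS peak inside the W10min peak in 50 (25%). The median width was 301 bp for the HS partner and 248.5 bp for the W10min partner. A q of at most 0.05 was reached in both lists by 104 pairs, in HS alone by 43, in W10min alone by 31 and in neither by 22. Across the 200 pairs the folds of the partners went together in part (Spearman 0.43, Pearson 0.50 on log2 folds). Among the 35 pairs with a q of at most 1e-05 in both lists Spearman was 0.038. The points share the reference genome and the same antibody, and the coefficients are given as a description.

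**Figure D2:**
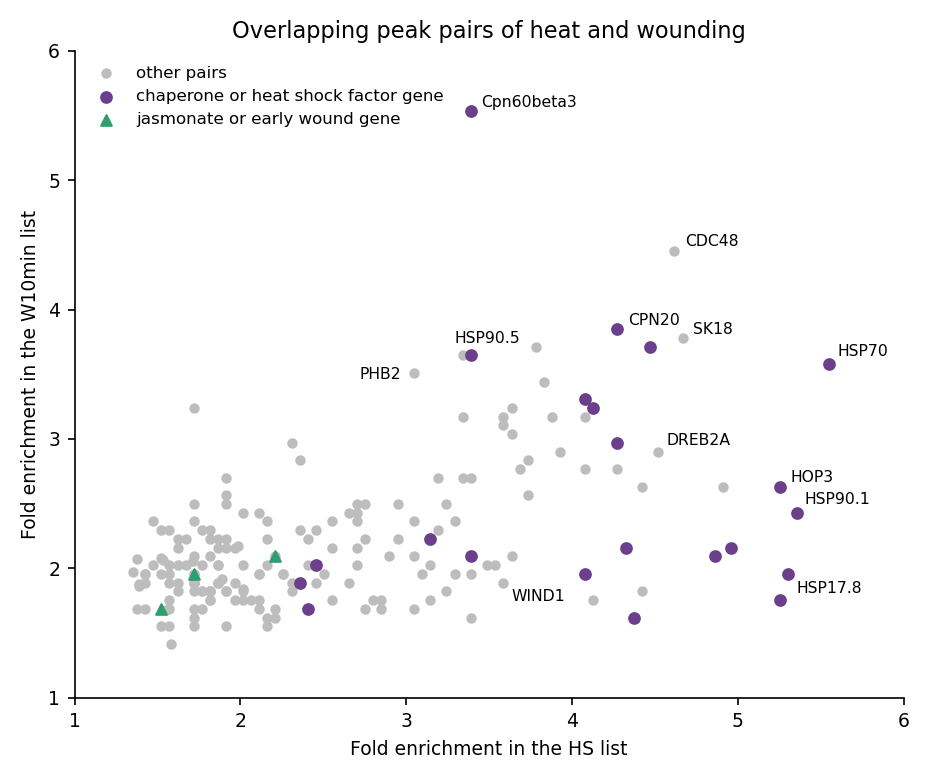
Fold enrichment in HS (horizontal axis) and in W10min (vertical axis) for the 200 overlapping pairs; each point is a pair. Purple points touch a chaperone or heat shock factor gene, green triangles a jasmonate or early wound gene. Small heat shock protein sites such as HSP17.8 lie at the lower right (5.30 and 1.96), HSP70 at the right (5.55 and 3.58), and Cpn60beta3 at the top (3.39 and 5.54).

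The annotated features of the classes differed in their shares. A promoter was touched by 90.45% of the HS peaks in both and 73.9% of those in HS only, and by 90.36% of the W10min peaks in both and 83.8% of those in W10min only. Both a promoter and a gene body were touched by 53.3% and 33.6% of the HS peaks in the 2 classes, and by 56.3% and 36.4% of the W10min peaks. Transposable element genes were touched by 15.3% of HS only peaks, 5.97% of W10min only peaks and 4.52% of the HS peaks in both. Among peaks with a q of at most 1e-05 the order was another, with 4.31% of 116 HS only peaks and 33.3% of 15 W10min only peaks, and the promoter share of those 15 was 40%. No coding gene was named for 136 HS only peaks (13.5%) and 40 W10min only peaks (6.13%). In both, none was named for 8 HS peaks (4.02%) and 8 W10min peaks (4.06%). HS only peaks were also narrow, with a median listed width of 117.5 bp against 301 bp in both, and fold and width moved with class together, so that their parts in these shares were not tested.

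Of 27444 nuclear protein-coding genes, 340 were annotated to a peak in both (1.24%), 58 had an HS only and a W10min only peak at separate sites (0.211%), 1136 were HS only (4.14%) and 907 were W10min only (3.30%). Against these shares, 9 lists of genes were read, and each member was placed in 1 class. Among 96 genes for chaperones, co-chaperones and heat shock factors, 23 were in both, 25 HS only, 1 W10min only, 16 had peaks at time 0 sites alone and 31 had no peak in HS or W10min. Among 56 jasmonate and early wound genes, 3 were in both, 5 HS only, 15 W10min only, 4 at time 0 sites alone and 29 without a peak. Of the 25 HS only members of the chaperone and factor lists, 18 had no W10min peak of any kind, and 7 had a removed peak elsewhere at the gene. Of the 15 W10min only jasmonate and wound genes, 13 had no HS peak of any kind.

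**Figure D3:**
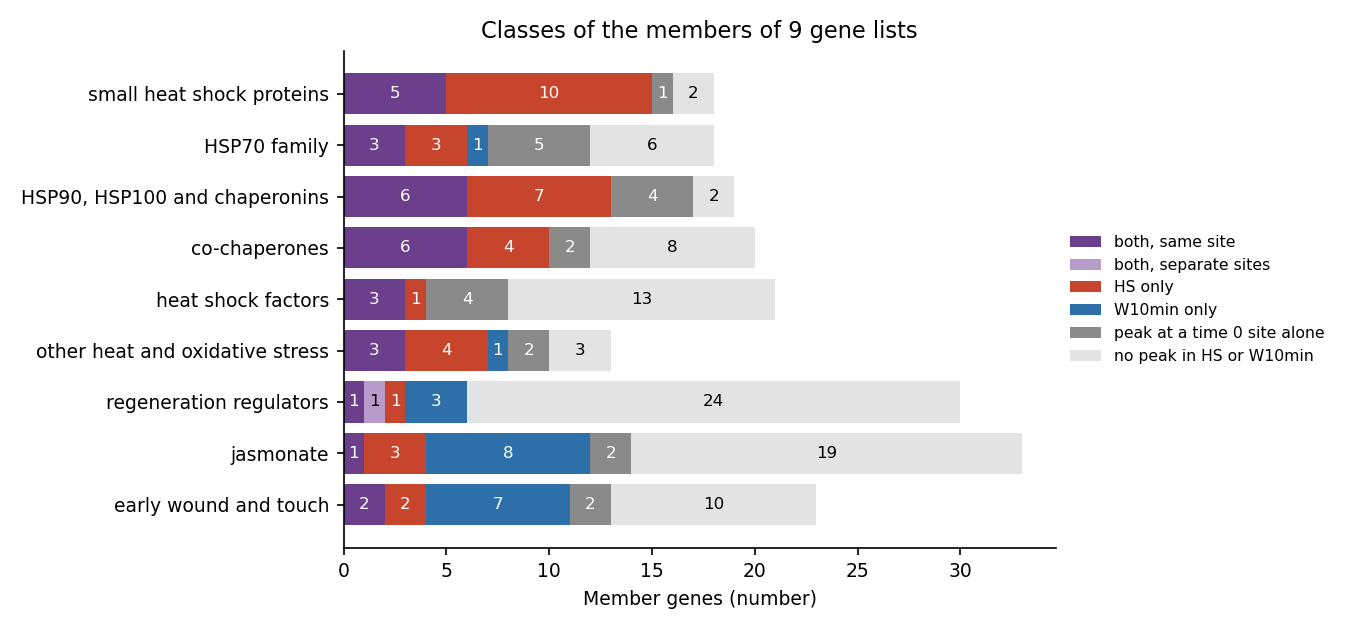
Number of member genes (horizontal axis) by class, for 9 gene lists (vertical axis). Colours stand for peaks in both lists at the same site, in both at separate sites, in HS only, in W10min only, at a time 0 site alone, and for genes without a peak in HS or W10min. Red and purple fill most of the small heat shock protein bar (10 and 5 of 18), and blue is the larger coloured part of the jasmonate and early wound bars (8 of 33 and 7 of 23).

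Small heat shock proteins hold unfolding proteins in a soluble state until other chaperones refold them. Of 18 listed genes 5 were in both, 10 HS only and 0 W10min only. The members in both stood near the top of HS, and in W10min between ranks 486 and 1253 of 1445. HSP17.8 (AT1G07400), a cytosolic member, had a peak of 5.30-fold in HS at chromosome 1, 2274520 to 2275577 (TAIR10), over its promoter and gene, ranked 7 of 2103. The W10min peak inside it was 1.96-fold (q 0.0319), ranked 661 of 1445, and a W3h peak of 1.90-fold met the site. HSP17.6II and HSP17.6A, neighbours that share a peak, were at 5.26-fold in HS and 1.76-fold in W10min (q 0.27). HSP17.4B was at 4.86-fold and 2.09-fold (q 0.00642), and its site also met a W24h peak of 2.10-fold. HSP17.6B was at 4.37-fold and 1.62-fold (q 0.909). The median rank of the 5 genes was 9 in HS and 1031 in W10min. The peak shared by HSP17.6II and HSP17.6A counts for each gene and gives both medians. At a q of at most 0.05 in both lists 2 of the 5 remained, HSP17.8 and HSP17.4B.

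The 10 HS only members spanned compartments. HSP17.6C (AT1G53540, cytosol) had the second strongest peak of the whole HS only class, at 4.76-fold and chromosome 1, 19979949 to 19981251. HSP17.4A was at 4.27-fold. HSP23.6, of mitochondria, was at 4.22-fold, and a W3h peak of 1.85-fold (q 0.024) met its site. AT2G19310, a further member, was at 3.83-fold. The others ranged from 2.95-fold for HSP22, of the endoplasmic reticulum, down to 1.72-fold (q 0.11) for HSP14.7 and HSP23.5. The peak of HSP23.5 was a weak neighbour of its main site, which was removed because it met a WT0 peak (4.91-fold in HS and 3.17-fold in W10min). HSP17.6A-CI was likewise at a time 0 site, with 4.72-fold in HS and 2.30-fold in W10min.

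HSP70 proteins refold or deliver client proteins with ATP. Of 18 members 3 were in both, 3 HS only, 1 W10min only and 5 at time 0 sites alone. HSP70 (AT3G12580), a strongly heat-inducible cytosolic member, had the highest fold of any kept HS peak, at 5.55-fold and chromosome 3, 3992947 to 3994567. Its W10min peak was 3.58-fold (q 1.28e-13), its W3h peak 2.54-fold and its W24h peak 2.04-fold, so that this site was listed at every treated time. HSC70-2 was at 4.13-fold in HS, 3.24-fold in W10min and 2.84-fold in W3h, and also had a weaker time 0 site (1.42-fold in HS, 1.96-fold in W10min). HSP70T-2, a shorter family member, was at 4.08-fold and 1.96-fold. HSP70B (AT1G16030), another heat-inducible cytosolic gene, was HS only at 3.93-fold, with no W10min peak. HSP70-16 was HS only with a peak of 1.67-fold (q 0.199). BIP2, an HSP70 of the endoplasmic reticulum, was HS only with a peak of 1.57-fold (q 0.599). The W10min only member, HSC70-1, was in that class through a peak of 1.49-fold (q of 1) beside its main time 0 site, which had 5.30-fold in HS and 8.30-fold in W10min.

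HSP90 matures regulatory proteins, HSP100 proteins pull apart aggregates, and chaperonins fold proteins in a closed chamber. Of 19 members of these families 6 were in both, 7 HS only and 0 W10min only. HSP90.1 (AT5G52640), the heat-inducible cytosolic HSP90, was at 5.35-fold in HS and chromosome 5, 21351729 to 21353142, at 2.43-fold in W10min (q 6.77e-05) and at 1.85-fold in W3h. HSP60, of mitochondria, was at 4.32-fold and 2.16-fold, and its relative HSP60-2 at 2.41-fold and 1.69-fold (q 0.507). CPN20, the chloroplast co-chaperonin, was at 4.27-fold in HS and 3.85-fold in W10min. HSP90.5 (AT2G04030), the chloroplast HSP90, was at 3.39-fold (rank 126) and 3.646-fold (rank 105), with W3h at 1.745-fold and W24h at 1.91-fold. Cpn60beta3 (AT5G56500), a chloroplast chaperonin subunit, had the highest fold of any kept W10min peak, 5.54-fold (q 1.35e-33) at chromosome 5, 22873451 to 22873795, against 3.39-fold in HS and 2.94-fold in W3h.

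The HS only members of these families were led by CLPB3, the chloroplast disaggregase, at 3.63-fold. HSP60-3A was at 3.00-fold and HSP90.6, the mitochondrial HSP90, at 2.41-fold, and neither had a W10min peak. HSP90.2, HSP90.3, HSP90.4 and Cpn60beta2 were HS only through peaks of 1.72-fold to 2.24-fold near strong time 0 sites. HSP90.3 and HSP90.4 share the peak of 2.24-fold, which counts for each gene. HSP90.2 to HSP90.4 are near-identical neighbours, and how the authors treated reads that match several of them is not given in the sources used here.

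Co-chaperones load clients onto HSP70 and HSP90 and regulate their cycles. Of 20 members 6 were in both and 4 HS only. HOP3 (AT4G12400), which bridges HSP70 and HSP90, was at 5.26-fold in HS, 2.63-fold in W10min and 2.24-fold in W3h, and its relative HOP2 at 4.27-fold, 2.97-fold and 1.85-fold. FES1A, an HSP70 partner, was at 4.96-fold and 2.16-fold and had no W3h peak. AHA1-like, an activator of the HSP90 ATPase, was at 4.47-fold, 3.71-fold and 2.09-fold, and the HSP40 protein J2 at 4.08-fold, 3.31-fold and 1.94-fold. BAG5, of the BAG family of HSP70 partners, was at 2.36-fold and 1.89-fold (q 0.0674). ROF2 (AT5G48570), a peptidyl-prolyl isomerase of the heat response, led the HS only class at 5.11-fold (q 3.46e-36) and chromosome 5, 19693309 to 19694125, ranked 16 in HS. BAG6 was at 4.37-fold and SGT1A, a partner of HSP90, at 3.39-fold. None of these 3 genes had a W10min, W3h or W24h peak. FES1C was HS only through a weak peak of 1.48-fold, ranked 1820 of 2103. It also had a time 0 site, with 1.67-fold in HS (q 0.199) and 1.82-fold in W10min (q 0.138). ROF1, the close relative of ROF2, was at a time 0 site with 5.21-fold in HS and 5.00-fold in W10min.

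Heat shock factors form a network in which class A members activate and most class B members repress. Of 21 members 3 were in both, 1 HS only and 4 at time 0 sites alone. HSFA7B was at 3.39-fold in HS and 2.09-fold in W10min, HSFB2A at 3.14-fold and 2.23-fold, and HSFB1 at 2.46-fold and 2.03-fold. All 3 passed a q of 0.05 in both lists. HSFB1 also had a time 0 site, with 1.72-fold in HS (q 0.11) and 2.498-fold in W10min, above its kept W10min peak. Without genes that have any time 0 peak, 2 of the 3 stayed in both. HSFA2 (AT2G26150), which prolongs the heat response, had its main peak at a time 0 site, with 5.60-fold in HS and 7.22-fold in W10min. It was HS only through weak peaks inside the gene, the stronger at 1.62-fold (q 0.35).

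Other regulators and enzymes of heat and oxidative stress gave 3 genes in both, 4 HS only and 1 W10min only of 13. DREB2A (AT5G05410), a transcription factor of drought and heat, was at 4.52-fold in HS and 2.90-fold in W10min, with no later wounding peak. MBF1C (AT3G24500), a transcriptional coactivator needed for heat tolerance, was at 4.42-fold and 2.63-fold. CDC48 (AT3G09840), the ATPase that extracts ubiquitinated proteins, was at 4.62-fold and 4.46-fold (q 6.51e-22) and at 2.44-fold in W3h. HSA32, a protein of long-term heat memory, was HS only at 3.09-fold, GOLS1, which makes galactinol and had a WT0 peak elsewhere, at 2.70-fold, APX2, a heat-induced ascorbate peroxidase, at 2.16-fold and DREB2C at 1.87-fold. CAT2, a catalase, was W10min only through a peak of 1.82-fold (q 0.138) apart from its time 0 site.

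**Figure D4:**
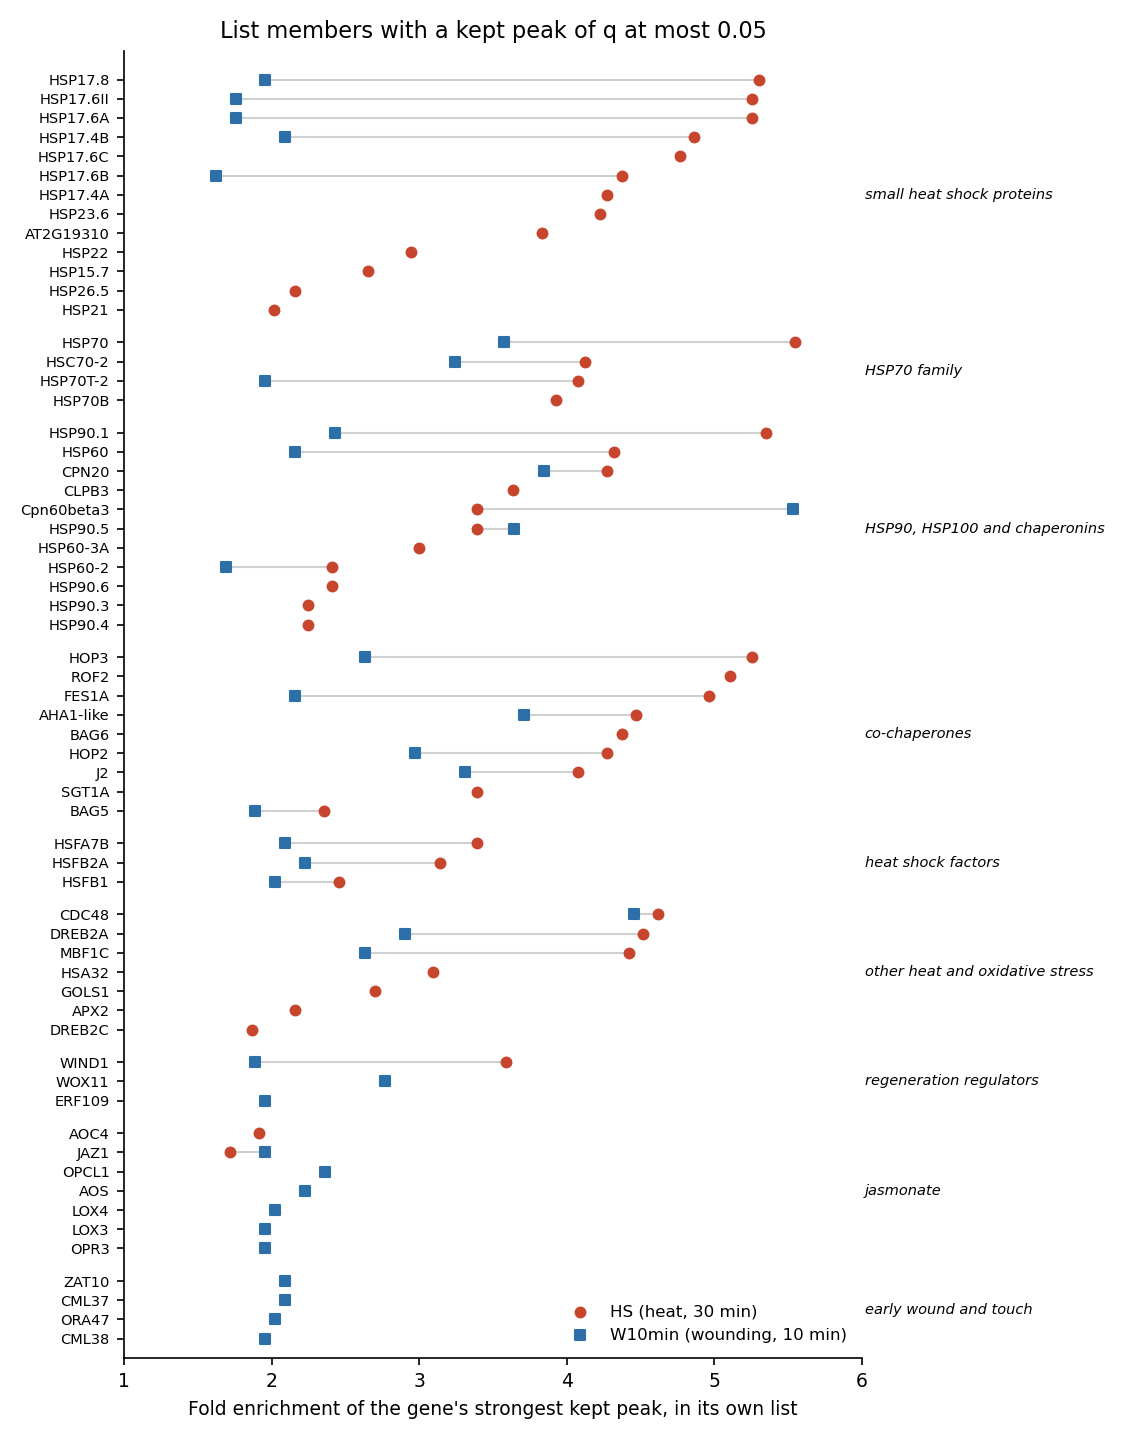
Fold enrichment (horizontal axis) of the strongest kept peak of each list member (vertical axis) with a kept peak of q at most 0.05 in HS or W10min; red circles are HS, blue squares W10min, and a grey line joins the values of a gene with both. For a gene in both, the peaks are those of that class, and the HS partner of ZAT10 is named for another gene and not drawn. WIND2, with peaks in both lists at separate sites, is not drawn. Folds are comparable within a list only. HSP17.8 stands at 5.30 and 1.96, Cpn60beta3 at 3.39 and 5.54, and the jasmonate members reach 2.36 at OPCL1.

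Genes outside the lists also had shared peaks. In the order of HS, SR30, a splicing factor, was at 4.91-fold and 2.63-fold, and SK18, a SKP1-like protein of ubiquitin ligases, at 4.67-fold and 3.78-fold with a W3h peak of 2.39-fold. In the order of W10min, HIP1, an HSP70-interacting protein, was at 3.71-fold (HS 3.78-fold), a peak at AT1G21350 and GLTP2 at 3.646-fold (HS 3.34-fold) and PHB2, a mitochondrial prohibitin, at 3.51-fold (HS 3.05-fold). A peak at AT2G43620 and AT2G43630, which have no symbol in the RefSeq table, was at 3.44-fold (HS 3.83-fold). Others were chosen after their values were seen. UBC2, a ubiquitin-conjugating enzyme, was at 4.27-fold in HS and 2.77-fold in W10min, and PUX5, of the UBX family that binds CDC48, at 3.39-fold and 2.70-fold. AGO2, an Argonaute protein of RNA silencing, was at 3.93-fold and 2.90-fold. SUMO5, a SUMO protein, was at 2.36-fold and 2.84-fold. The basic helix-loop-helix gene BHLH92 was at 3.63-fold and 3.04-fold, and the zinc finger gene ZAT6 at 3.34-fold and 2.70-fold. The ZAT6 site was also listed in W3h (3.34-fold) and W24h (2.48-fold). The glutathione transferase gene GSTU5 was at 3.59-fold and 3.11-fold.

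The strongest HS only peaks outside the lists had plainer neighbours. A peak of 3.88-fold lay over the promoter and gene of AT5G35320, and one of 3.59-fold over AT5G47830 and the promoter of AMK2, a chloroplast adenylate kinase. A listed piece of 96 bp in PIF4, a growth regulator of warm temperature, and the promoter of PAO2, a polyamine oxidase, had 3.93-fold. It lies beside HS peaks that met HT0, and the files list only those stretches of a peak that carry an annotation. A second peak of HSP17.6II, at 4.18-fold, lay over the gene and promoter and was HS only although the peak shared with HSP17.6A was in both. CDSP32, a thioredoxin-like chloroplast stress protein, at 3.44-fold, and BZIP17, a membrane-bound factor of the endoplasmic reticulum stress response, at 3.09-fold, were chosen after their values were seen. BZIP28, which acts with BZIP17 in that response, was in both at 1.96-fold and 2.16-fold.

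Regulators of regeneration gave 1 gene in both, 1 in both at separate sites, 1 HS only and 3 W10min only, while 24 of the 30 had no peak. WIND1 (AT1G78080), which promotes dedifferentiation and callus at wounds, was in both. Its promoter peak at chromosome 1, 29361248 to 29362043, had 3.59-fold in HS (q 7.53e-17), while the W10min peak inside it had 1.89-fold (q 0.0674) and the W3h peak meeting it 2.39-fold (q 2.8e-06). The gene also had a WT0 peak elsewhere. WIND2 had a W10min peak of 2.03-fold (q 0.0145) and an HS peak of 1.62-fold (q 0.35), at separate places in its promoter. WOX11 (AT3G03660), a homeobox gene of root formation from wounded tissue, was W10min only with 2.77-fold (q 3.63e-07) at chromosome 3, 891542 to 892148, inside the gene. ERF109, a regulator of wound-induced auxin synthesis, was at 1.96-fold (q 0.0319) and PLT7, an AP2 factor of shoot and root stem cells, at 1.69-fold (q 0.507). WOX5, of the root stem cell niche, was HS only at 1.52-fold (q 0.993).

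Most jasmonate genes had no peak in either list (19 of 33). Of the others 8 were W10min only, 3 HS only, 1 in both and 2 at time 0 sites alone. The 8 included enzymes on the way from linolenic acid to jasmonate. Peaks of LOX3, LOX4, AOS, OPR3, JAZ3 and JAZ6 lay in the gene body, and with promoter rows alone 2 of the 8 stayed W10min only, OPCL1 and MYC2. The lipoxygenases LOX3 and LOX4 had peaks of 1.96-fold (q 0.0319) and 2.03-fold (q 0.0145), and AOS, the allene oxide synthase, one of 2.23-fold (q 0.00114). OPR3, a reductase further along, had 1.96-fold (q 0.0319) and OPCL1, a ligase that starts the shortening of the side chain, 2.36-fold (q 1.78e-04). None of these 5 genes had an HS peak, and AOS had a WT0 peak elsewhere. The repressor genes JAZ3 and JAZ6 had W10min only peaks of 1.55-fold (q of 1) and 1.62-fold (q 0.909), and MYC2, the main activator of jasmonate responses, 1.76-fold (q 0.27). JAZ6 also had a W10min peak of 1.76-fold (q 0.27) at a time 0 site, and JAZ3 had an HT0 peak elsewhere. JAZ1 (AT1G19180), another repressor, was in both at 1.72-fold (q 0.11) in HS and 1.96-fold (q 0.0319) in W10min, and had a further peak at a time 0 site. The HS only members were AOC4, an allene oxide cyclase, at 1.92-fold (q 0.00833), JAR1, which conjugates jasmonate, at 1.72-fold (q 0.11) and JAZ12 at 1.52-fold (q 0.993). JAR1 also had a W10min peak of 1.89-fold (q 0.0674) at a time 0 site.

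Early wound and touch genes gave a like count, with 7 W10min only, 2 HS only and 2 in both of 23. The calmodulin-like genes CML37 and CML38 had W10min peaks of 2.09-fold (q 0.00642) and 1.96-fold (q 0.0319), and ORA47, an ERF regulator of jasmonate synthesis, 2.03-fold (q 0.0145). CBF1, a cold and wound response factor, had 1.89-fold (q 0.0674). The HS only members WRKY33 and TCH3 had 1.77-fold (q 0.0597) and 1.52-fold (q 0.993), and TCH3 had an HT0 peak elsewhere. ZAT10 (AT1G27730), a zinc finger repressor of stress responses, was in both through a W10min peak of 2.09-fold (q 0.00642) in the gene, which met an HS peak of 2.21-fold (q 1.06e-04) that the files name for another gene. TCH4, a touch-induced cell wall enzyme, was in both at 1.52-fold (q 0.993) and 1.69-fold (q 0.507) and had a WT0 peak elsewhere. Of the 15 W10min only genes of the jasmonate and wound lists 8 had a peak with a q of at most 0.05, and 0 reached 1e-05. Of the 25 HS only genes of the chaperone and factor lists 17 had a q of at most 0.05.

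The strongest W10min only peak stood at rank 99 of 1445 in its list. Its value, 3.71-fold, belonged to a listed piece of 3 bp in AT2G45180, so that most of that peak carries no annotation in the files. The next were 3.11-fold (q 1.07e-09) at AT3G07195 and AT3G07200, 2.90-fold at AT1G54410 and AT1G54420, and the peak in WOX11. AT3G60920, beside a transposable element gene, had 2.66-fold and a W3h peak of 1.60-fold. The promoters of TOM5, a subunit of the mitochondrial import pore, and AT5G08060 shared a peak of 2.63-fold. ERF73, a factor of the hypoxia response, had 2.57-fold in its promoter, next to a peak of equal fold in AT1G72340. The promoter of AGP17, an arabinogalactan protein, and 3 neighbouring genes had 2.57-fold and a W24h peak of 1.78-fold. AT1G61890 and the pair of SHV3, a cell wall protein, and FIM1, an actin bundler, had 2.498-fold, and ATG8C, of autophagy, 2.43-fold. None of the 12 was a chaperone or heat shock factor list member, while 9 of the 12 strongest HS only peaks named a small heat shock protein, HSP70, HSP100 or co-chaperone list member, the second peak of HSP17.6II included. This was not particular to HS only. The strongest peaks in both also named such members, among them HSP70, HSP90.1 and HOP3 by HS, and Cpn60beta3, CPN20 and AHA1-like by W10min. The chaperone and factor lists hold 96 of 27444 coding genes and were completed after peaks had been viewed.

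The later wounding lists, which the sorting did not use, met the classes unequally. Of the HS peaks in both 46 of 199 met a W3h peak (23.1%), and of HS only peaks 27 of 1008 did (2.68%). The share was 22.8% of all listed HS peaks, and 15.6% of the 1912 outside the chromosome 2 stretch, which the classes leave out. Of W10min only peaks 28 of 653 met a W3h peak (4.29%), against 24.9% of all listed W10min peaks and 21.2% of the 1376 outside the stretch. HS peaks outside the chromosome 2 stretch that had met a time 0 peak met W3h in 225 of 705 cases (31.9%). Since shared peaks were stronger, the shares were also read within steps of fold, which do not make fold or width equal. Inside the top step of HS, 26 of 64 peaks in both and 6 of 31 HS only peaks had a fold of 4 or more. Inside that of W10min, 20 of 38 peaks in both and 2 of 13 W10min only peaks had a fold of 3 or more. With a fold of 3 or more in HS, 30 of 64 peaks in both and 2 of 31 HS only peaks met a W3h peak. With a fold of 2.5 or more in W10min, 24 of 38 peaks in both and 1 of 13 W10min only peaks did. The W24h list met 5.53% of the HS peaks in both and 2.48% of HS only peaks, against 18.5% of all listed HS peaks and 10.7% of those outside the stretch. It met 3.52% of W10min only peaks, against 16.8% of all listed W10min peaks and 12.6% of those outside the stretch. W3h and W10min come from 1 wounding series with 1 library each, and the part of shared handling in these shares was not tested.

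**Figure D5:**
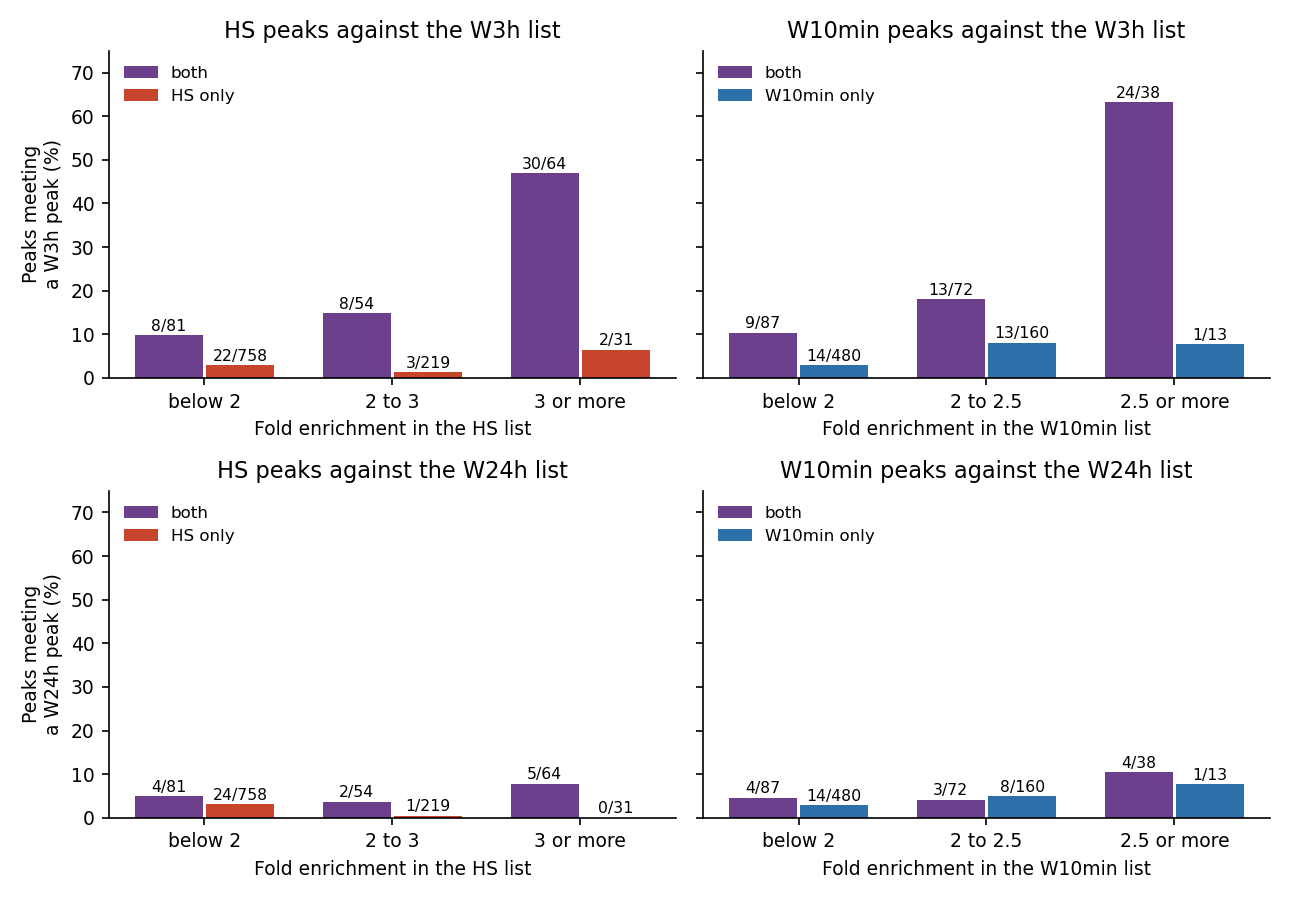
Share of peaks that met a peak listed 3 h (W3h, top) or 24 h (W24h, bottom) after wounding (vertical axis, percent), by fold enrichment in the peak's own list (horizontal axis), for HS peaks (left) and W10min peaks (right). Purple bars are peaks in both, red bars HS only and blue bars W10min only, with counts above. At 3-fold or more in HS 30 of 64 peaks in both and 2 of 31 HS only peaks met W3h.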

How the data were processed

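Bowtie2, SAMtools, MACS2 and the build TAIR10 are named in the submitters' processing notes, without versions; cut-offs are not stated there. The fold enrichment of a peak is a ratio deposited by the authors, and its significance is a −log10 q deposited by the authors, per the file headers. Rows carry gene and feature, and stretches without an annotation are not listed. Here 1 was added to each start, and rows of a list with equal fold and q that overlapped or had a gap of up to 1 base were joined (3848 rows to 2103 peaks in HS, 2926 to 1445 in W10min). The sorting code was run on simulated lists of wide peaks at sites far apart, where 100% of kept peaks got their class. Such lists hold no near misses or narrow pieces, so this checked the code and not the classes of the real peaks. A gene took the classes of peaks annotated to its promoter (up to 3001 bp) or body; values of a gene in both come from that class. Names come from a RefSeq table of TAIR10.1, used for no coordinates, and from common names of the 195 listed genes; 35 identifiers of HS and 41 of W10min were not in it.

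The members, the 9 lists and the rule for named genes were chosen with earlier results of these data known, and the lists were completed after peaks had been viewed. The rule took the 12 peaks of highest fold with a coding gene in each class (for both, by HS and by W10min), up to 4 members of each list in each class, and HSFA1D, HSFA2, WIND1, DREB2A, MBF1C, JAZ1 and ZAT10; further list members are named for completeness. No test was run, since each condition has 1 list. Alternatives were the overlap, q, fold, list length, time 0 filter, joining and gene assignment. Python 3.11.15, pandas 2.3.3, numpy 2.4.6 and matplotlib 3.10.9 were used.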

Additional observations from a re-analysis of the deposited data

How the results depend on the processing

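No paired analysis was possible because each condition has 1 list from concatenated reads, and replicates could not be left out for the same reason. The count of heat shock elements in promoters was not run. Class sizes depended on thresholds. HS only (1008) became 632 with equal numbers of peaks, 504 at or above the median fold, 464 at a q of at most 0.05 and 172 at 1e-05. W10min only (653) became 259, 270 and 19 under the last 3 of these and 1019 with unjoined intervals. HS peaks in both (199) became 104 at the median fold, 104 at a q of 0.05, 34 at 1e-05, 106 with reciprocal overlap of 50%, 387 unjoined and 507 with no time 0 filter. At a q of 0.05 the coding genes numbered 191 in both, 642 HS only and 384 W10min only. The chaperone and heat shock factor member of W10min only went to 0 at a q of 0.05 and without genes that have any time 0 peak. Of the jasmonate and early wound genes, HS only (5) became 3 with equal numbers, 3 with promoter rows, 3 without genes with a time 0 peak and 1 at a q of 0.05; W10min only (15) became 7 with promoter rows and 9 at a q of 0.05; both (3) became 1 at a q of 0.05 and 1 without genes with a time 0 peak. The share meeting W3h was 33.7% in both and 8.89% in W10min only at a q of 0.05, and 7.54% in both and 1.09% in HS only with reciprocal overlap of 50%. The cause was not tested. Joining over gaps of up to 1000 bases, counting removed peaks of the other list and leaving out pieces under 50 bp were chosen after seeing the data, and their 36 values kept within 1.5 times the counts given. Depth per library is unknown and sets an unknown limit on weak peaks.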

Other observations

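Some W10min only sites were listed again at 24 h and not at 3 h. A peak over COR15A and the promoter of its neighbour COR15B, cold-induced genes for proteins that protect chloroplast membranes, had 2.43-fold in W10min and 2.32-fold (q 1.52e-04) in W24h. A peak in ERD15, an early dehydration response gene, had 2.30-fold in W10min and 1.78-fold (q 0.151) in W24h. AGP15, an arabinogalactan protein gene, had a promoter site in both at 4.08-fold in HS and 3.17-fold in W10min, and 3.24-fold in W3h. All were chosen after their values were seen, and no value here was tested.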
